A study of Caenorhabditis elegans with 18 samples.

Results

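Larvae of Caenorhabditis elegans that carried an hsf-1::gfp transgene were compared with wild-type larvae at 20 °C, in 6 of the 18 libraries of polyadenylated RNA in the series. The transgene strain, AM1062, carried the transgene rmSi1[hsf-1::gfp] on chromosome II, the allele hsf-1(sy441) on chromosome I and the allele unc-119(ed9) on chromosome III, and it was sequenced in 3 libraries at 20 °C. The mutant strain PS3551, hsf-1(sy441) without the transgene, had 3 libraries at 20 °C and is given as levels beside the comparison. The wild type was N2, also with 3 libraries at 20 °C. All groups were whole animals at the middle of the second larval stage, synchronised with hypochlorite and fed OP50 bacteria. For a repeat of the comparison, both strains also had 3 libraries each after 30 min in a water bath at 34 °C. The promoter of the transgene is not given in the sources used here, and the transgene strain differs from N2 by 3 alleles at once, whose parts in a difference cannot be told apart. Separate cultures for the replicates are not stated in the labels. The p-values here set a difference between groups against the spread of libraries within groups only.

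HSF-1 is the heat shock transcription factor of the worm. It binds heat shock elements and drives chaperone genes after heat, and in larvae at normal temperature it is known to take part in growth and development. The allele sy441 carries a premature stop that removes part of the activation domain, and animals with it are known to be poor at inducing heat shock proteins. The gene unc-119 encodes a neuronal protein that carries lipid-modified cargo, and unc-119(ed9) is the usual background allele for placing a single transgene copy in the genome.

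The 6 libraries held between 19.2 and 28.7 M fragments, and 14219 genes were tested. Levels are in CPM, counts of fragments scaled to library size with TMM factors, and adjusted p-values are from edgeR's quasi-likelihood test with Benjamini-Hochberg adjustment over all genes tested, called at 0.05. Both libraries with replicate number 3 had the highest values on the first principal component, which held 57.5% of the variance. These were 32.65 in N2 and 52.5 in the transgene strain. The other libraries were split by strain, at −34.62 and −56.59 in N2 and 4.14 and 1.92 in the transgene strain. The number-3 libraries of the 2 strains deviated together (correlation 0.63), while numbers 1 and 2 were not told apart. Counts from a fit over all 18 libraries with the replicate number as a block therefore stand beside those of the gene groups whose count it changed. Summed levels of the marker list of neurons were 2230, 2536 and 2273 CPM in the transgene strain and 2286, 2197 and 2292 CPM in N2.

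The hsf-1 transcript itself was higher in the transgene strain. The gene (Y53C10A.12, ce10 chromosome I, 11953502 to 11961977) had 104, 106 and 115 CPM in the 3 transgene libraries, 92.9, 98.3 and 103 CPM in hsf-1(sy441), and 37.9, 42 and 38.5 CPM in N2. All transgene libraries lay far above all N2 libraries, by 2.74-fold on average, and the mutant without the transgene was also above N2. The log2 fold change of the transgene strain over N2 was 1.46 with a standard error of 0.09 (adjusted p = 3.9e-07). The deposited table has 1 value for hsf-1, in which endogenous and transgene fragments were not told apart, so the level may hold both. Against hsf-1(sy441) the log2 difference of the transgene strain was 0.14 (adjusted p = 0.39).

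The second gene under test, unc-119 (M142.1), was lower. It lies on chromosome III, from 10902549 to 10908831. It had 3.01, 2.53 and 3.34 CPM in the transgene strain, 20, 19.1 and 19.1 CPM in hsf-1(sy441), and 19.2, 16.3 and 18.8 CPM in N2. The transgene libraries alone were low, and they did not overlap with either other strain. The fall was 6.11-fold, a log2 fold change of −2.61 ± 0.13 (SE, adjusted p = 2.5e-08). The next gene to it, com-1, averaged 5.96 ± 0.529 CPM in the transgene strain and 5.26 ± 0.755 CPM in N2 (SD, n = 3 each), with an adjusted p of 0.67.

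**Figure D1:**
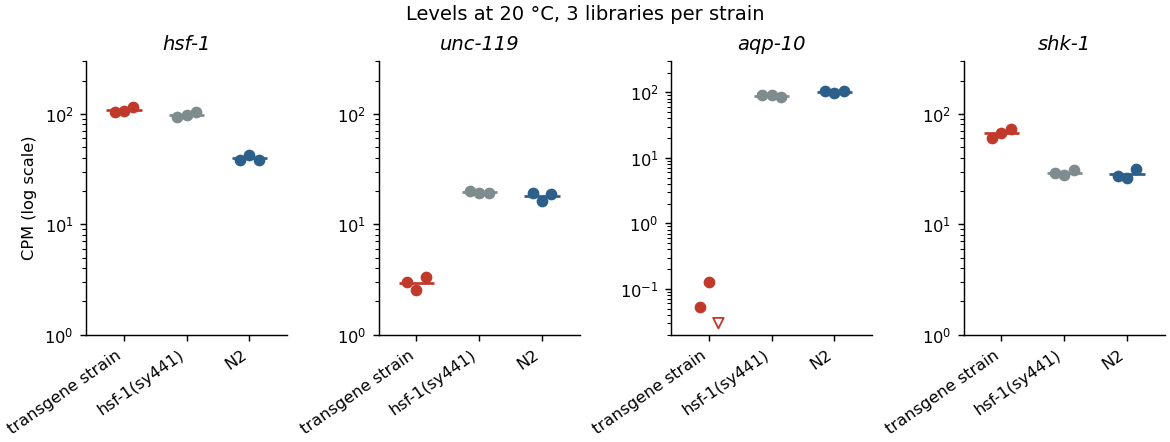
Level in CPM (log axis) of hsf-1, unc-119, aqp-10 and shk-1 in each library of the transgene strain, hsf-1(sy441) and N2 at 20 °C. Points are libraries, horizontal bars are means and an open triangle marks a library with 0 fragments; hsf-1 was high in both hsf-1(sy441) backgrounds, while unc-119 and aqp-10 were low and shk-1 was high in the transgene strain.

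The largest fall of the comparison was at aqp-10 (ZK1321.3, chromosome II, 9768392 to 9769793), which encodes an aquaporin, a membrane channel for water. Its fragments numbered 1, 3 and 0 in the transgene libraries and 2510, 2653 and 2133 in the N2 libraries. In CPM it had 0.0527, 0.129 and 0 in the transgene strain, 91, 90.5 and 83.5 in hsf-1(sy441), and 105, 96.6 and 106 in N2. The transgene libraries were thus at or near 0, and the mutant was at a level close to that of the wild type. The fitted log2 fold change was −10.57 ± 0.32 (SE, adjusted p = 2.3e-09). With so few fragments its size depends on the settings, from −11.74 to −6.92 over the alternatives tried.

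The neighbour of aqp-10, shk-1 (ZK1321.2, 9758175 to 9768206), which encodes a voltage-gated potassium channel of the Shaker family, was higher. Its end lies 185 bases from aqp-10. It had 60.6, 67.1 and 72.2 CPM in the transgene strain, 28.9, 27.7 and 31.1 CPM in hsf-1(sy441), and 27.6, 26 and 31.9 CPM in N2. The transgene libraries were again the ones that stood apart, with no overlap, and the rise over N2 was 2.34-fold (log2 1.22 ± 0.12 SE, adjusted p = 2.7e-05). On the other side of aqp-10, at 900 bases, ZK1321.4 averaged 80.3 ± 10.5 CPM in the transgene strain and 84.2 ± 11.4 CPM in N2 (SD, n = 3 each), with an adjusted p of 0.9. Other genes next to this pair, nos-3, Y53C12B.7, nssp-22 and cyp-13A1, had log2 fold changes between −0.06 and 0.19, and none was called. The labels place the transgene on the same chromosome, but its site is not given in the sources used here, and neither the fall of aqp-10 nor the rise of shk-1 was tested against it.

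The hsf-1 gene lay inside a stretch of chromosome I in which most transcripts were higher in the transgene strain. The stretch was delimited after values were seen, by the genes around hsf-1 with a fold of at least 1.5 and no more than 3 successive genes below it. It runs from eif-2Bbeta to nsph-1.2 (11891590 to 12188998, 297 kb). It held 41 tested genes, of which 33 reached 1 CPM. In it 23 genes were called higher, 56.1% of those tested, and 0 were called lower in the edgeR test; the replicate block called 25 higher. Over all genes tested 0.949% were called higher by edgeR, or 2.85% with the block. On chromosome I outside the stretch edgeR called 0.87% higher. These 23 genes were 17% of all rises in the comparison. Since the stretch was delimited on the same values, its counts at 20 °C are a description. Within 1 Mb of hsf-1, 25 of 205 tested genes were called higher (12.2%), and the 2 outside the stretch were scrm-4 and scrm-1. In the stretch itself, 15 genes were called higher without both number-3 libraries, and between 16 and 21 without any 1 library.

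The median log2 fold change of the 33 genes was 1.01, which is 2.01-fold, with quartiles of 0.88 and 1.2. Set against the N2 mean, the median was 1.05, 0.92 and 1.06 in the 3 transgene libraries, so each showed it. Of the 33 genes 31 were higher in every transgene library than in every N2 library, against 10.5% of all genes tested. In hsf-1(sy441) the median of the same genes over N2 was 1.59 on the log2 scale, which is 3.01-fold. The level in the transgene strain thus lay between that of the mutant and that of N2, with a median log2 difference of −0.6 from hsf-1(sy441). In that contrast, which has the same transgene libraries, 16 of the genes were called lower and 0 higher, where 4.63% of all genes tested were called, 2.08% higher and 2.55% lower.

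Members of the stretch with known roles moved by like amounts. The histone deacetylase gene hda-3 (R06C1.1, 11912782 to 11917710) had 75.9, 70 and 75.7 CPM in the transgene strain, 101, 108 and 107 CPM in hsf-1(sy441), and 31.9, 33.6 and 30.9 CPM in N2. The 3 strains did not overlap at all, and the rise over N2 was 2.3-fold (log2 1.2 ± 0.06 SE, adjusted p = 2e-08). Its log2 difference from hsf-1(sy441) was −0.51 (adjusted p = 0.00013).

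The farnesyl diphosphate synthase gene fdps-1, of the mevalonate pathway, had 107, 107 and 104 CPM in the transgene strain, 122 ± 5.01 CPM (SD, n = 3) in hsf-1(sy441), and 44, 42.4 and 41.7 CPM in N2. That was 2.48-fold over N2 (adjusted p = 9.6e-07). The translation initiation factor gene eif-2Bbeta, at the left edge, had 82.9, 89.1 and 83.6 CPM in the transgene strain, 116, 121 and 127 CPM in hsf-1(sy441), and 41.4, 40.4 and 38.4 CPM in N2. It was 2.13-fold over N2 (adjusted p = 1.4e-06), and again the libraries of the 3 strains were in 3 separate ranges.

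At the right edge nsph-1.2 had 19.6, 17.6 and 20.1 CPM in the transgene strain, 29.4, 35.9 and 34.8 CPM in hsf-1(sy441), and 9.17, 7.76 and 9.9 CPM in N2 (adjusted p = 0.0004 against N2). The genes also included wve-1, of the actin-regulating WAVE complex, with a log2 fold change of 0.88, and ksr-2, a scaffold of the Ras and MAP kinase pathway, with 0.97. The genes ubc-12, a NEDD8-conjugating enzyme, and mag-1, of the exon junction complex, rose by 1.01 and 0.88 on the log2 scale and share 1 locus in the table. The DNA repair gene exo-3 had 0.68 (adjusted p = 0.0079), which was 0.071 without N2 replicate 1 and 0.052 without transgene replicate 1.

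A few genes inside the stretch did not follow. R06C1.4 had a log2 fold change of 0.24 (adjusted p = 0.58) and the RNA-binding protein gene rbm-3.1 had −0.05 (adjusted p = 0.93). The gene hrpr-1 had 0.36 (adjusted p = 0.072), which the replicate block called with an adjusted p of 0.015. Just outside the edges, dnj-27 had −0.26 (adjusted p = 0.77) and R05D7.7 had −0.29 (adjusted p = 0.83). R05D7.7 averaged only 1 CPM in the transgene strain and 1.24 CPM in N2. The edges were set on these same values, so the step at each edge is a description. Copy number was not measured here, and its part in the stretch was not tested.

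**Figure D2:**
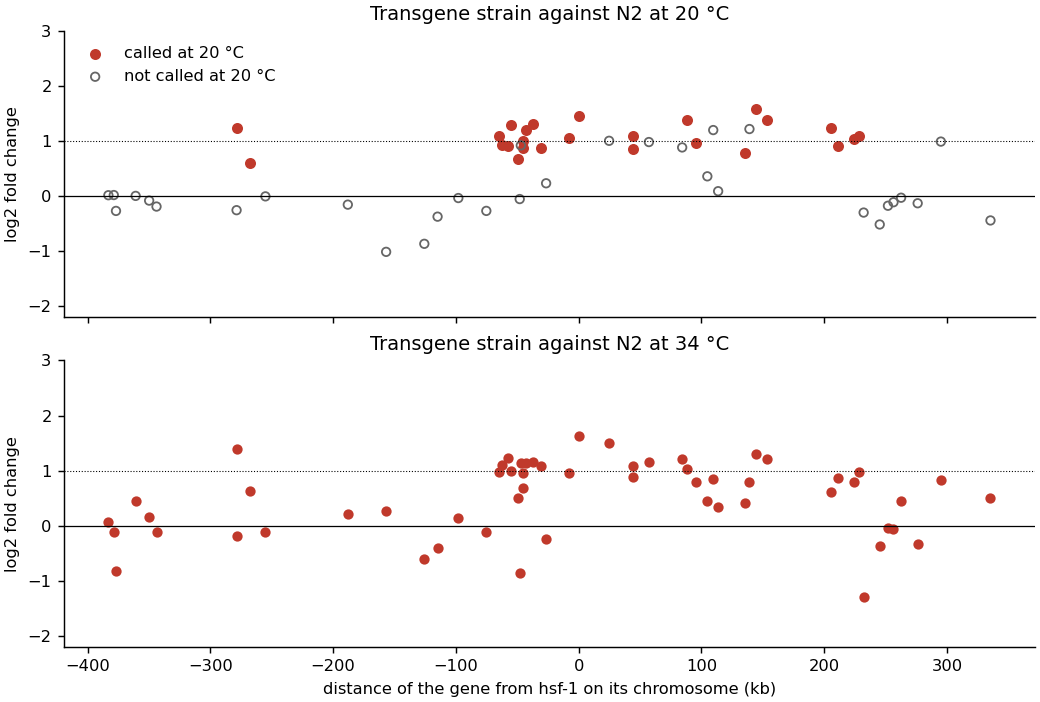
Log2 fold change of each gene with at least 1 CPM, by distance from the hsf-1 gene in kb, for the transgene strain over N2 at 20 °C (upper panel) and 34 °C (lower panel). In the upper panel filled points are called at an adjusted p under 0.05 and open ones are not, and the dotted line marks a log2 of 1; most genes of the 297 kb stretch lie near that line, with medians of 1.01 and 0.97, and most genes beyond its edges lie near 0.

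Across the genome 189 of the 14219 genes were called (1.33%), 135 higher (0.949%) and 54 lower (0.38%) in the transgene strain. In all 189 every library of one strain lay above every library of the other; among all genes tested 18.6% did so. Of the rises 69 were over 2-fold, and of the falls 21 were. With the replicate block 642 genes were called (4.52%), 405 higher (2.85%) and 237 lower (1.67%). DESeq2 called 450 (3.16%), 287 higher (2.02%) and 163 lower (1.15%). All 189 were called by both of these. The count was 101 without N2 replicate 1, 116 without N2 replicate 2, 118 without transgene replicate 3 and 90 without both number-3 libraries. Chromosome I held 42 of the rises, of which 23 lay in the stretch around hsf-1. That was 1.89% of the 2225 tested genes of chromosome I. Chromosome V held 35 rises (1.16% of 3008) and X held 8 (0.371% of 2155).

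The largest rise among genes of at least 10 CPM was at C38D9.2 (chromosome V, 17566413 to 17571577). It had 18.7, 12 and 13.5 CPM in the transgene strain, 18.6, 15.3 and 17.9 CPM in hsf-1(sy441), and 0.209, 0.364 and 0.247 CPM in N2. The 2 strains with hsf-1(sy441) had like levels and N2 was near 0 (log2 5.7 ± 0.27 SE over N2, adjusted p = 1.5e-08). F33H2.6 (chromosome I, 15014840 to 15016584) followed, with 46.7, 51.5 and 43.8 CPM in the transgene strain, 34.6, 34.3 and 31.5 CPM in hsf-1(sy441), and 3.6, 4.26 and 4.16 CPM in N2. It too was high in both strains with the allele and was 11.8-fold over N2 (adjusted p = 1.5e-08).

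The β-tubulin gene tbb-6 (T04H1.9, chromosome V, 12261785 to 12263826, in a locus of 2 genes) showed another pattern. It had 20.3, 24.2 and 22.8 CPM in the transgene strain, 3.34, 2.02 and 2.83 CPM in hsf-1(sy441), and 3.18, 3.21 and 2.97 CPM in N2. Here the transgene strain alone was high, 7.18-fold over N2 (log2 2.84 ± 0.23 SE, adjusted p = 4.5e-06). Its log2 difference from hsf-1(sy441) was 3.03 (adjusted p = 1.9e-06).

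The lysozyme gene lys-7 (C02A12.4, chromosome V, 3481416 to 3482599), a gene known for its part in defence against bacteria, had 198, 210 and 216 CPM in the transgene strain, 108, 131 and 170 CPM in hsf-1(sy441), and 36, 25.9 and 56.8 CPM in N2. The rise over N2 was 5.25-fold (adjusted p = 0.0019), with hsf-1(sy441) between the 2 strains. The log2 difference of the transgene strain from hsf-1(sy441) was 0.61 and was not called (adjusted p = 0.31). The immune effector gene sysm-1 (T24B8.5), which is known to depend on the p38 kinase pathway, had 12, 10.9 and 16.6 CPM in the transgene strain, against 4.1, 3.28 and 4.16 CPM in N2. That was 3.42-fold (adjusted p = 8.2e-05) with no overlap of the libraries.

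Among the other large rises, mbug-1 (F55G11.4) had 207, 206 and 279 CPM in the transgene strain and 31.9, 27.6 and 56.6 CPM in N2 (log2 2.58, adjusted p = 0.003). The cation-transporting ATPase gene catp-3 had 29.8, 44.6 and 42.7 CPM in the transgene strain and 4.65, 7.8 and 7.57 CPM in N2 (log2 2.55, adjusted p = 0.0016). The nuclear receptor gene nhr-155 had 10.1, 14.5 and 12 CPM in the transgene strain and 1.51, 0.692 and 2.62 CPM in N2 (log2 2.94, adjusted p = 0.0039). With only the 6 libraries compared, nhr-155 was not called with or without the block (adjusted p up to 0.086). All 3 genes had intermediate means in hsf-1(sy441), of 112, 22.6 and 6.86 CPM. None was called between the transgene strain and hsf-1(sy441) (adjusted p = 0.134, 0.205 and 0.284). The carboxylesterase gene cest-32 was 3.22-fold over N2 (adjusted p = 0.0016). The RNA-directed RNA polymerase gene rrf-2, which lies in the stretch around hsf-1, was 2.99-fold over N2 (adjusted p = 0.00019).

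At lower levels, anp-1 (locus of 4 genes on chromosome V) had 9.44, 9.95 and 6.13 CPM in the transgene strain and 0 fragments in all 3 N2 libraries. Taking 3 fragments as the floor of N2, it was at least 202-fold higher in these libraries by counting alone (adjusted p = 0.0036). Its log2 fold change ran from 1.81 to 10.82 over the alternatives tried. At 34 °C 1 N2 library had 1.14 CPM of anp-1, and its log2 fold change was 4.44. F32B5.1 had 6.75, 8.36 and 8.1 CPM in the transgene strain and 0.167, 0.109 and 0.099 CPM in N2 (adjusted p = 9.6e-08). Y23H5A.8 had 5.27, 5.27 and 3.07 CPM in the transgene strain and 0.209, 0.146 and 0.297 CPM in N2 (adjusted p = 3.5e-06). These 3 genes were also well above N2 in hsf-1(sy441), where they averaged 5.76, 6.36 and 3.45 CPM.

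The gene spig-5 behaved differently, with 1.37, 2.27 and 2.61 CPM in the transgene strain, 0.167, 0.0316 and 0.152 CPM in hsf-1(sy441), and 0.0419, 0.0364 and 0.0495 CPM in N2. It rested on 136 fragments in the transgene strain and 3 in N2, a ratio of 50.6 with a 95% counting interval of 16.9 to 248. Y45F10D.6 had 1.79, 1.42 and 3.66 CPM in the transgene strain and 0.0419, 0.146 and 0.198 CPM in N2 (adjusted p = 0.038). It was not called in any of the 6 fits without 1 library, with adjusted p between 0.055 and 0.2.

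**Figure D3:**
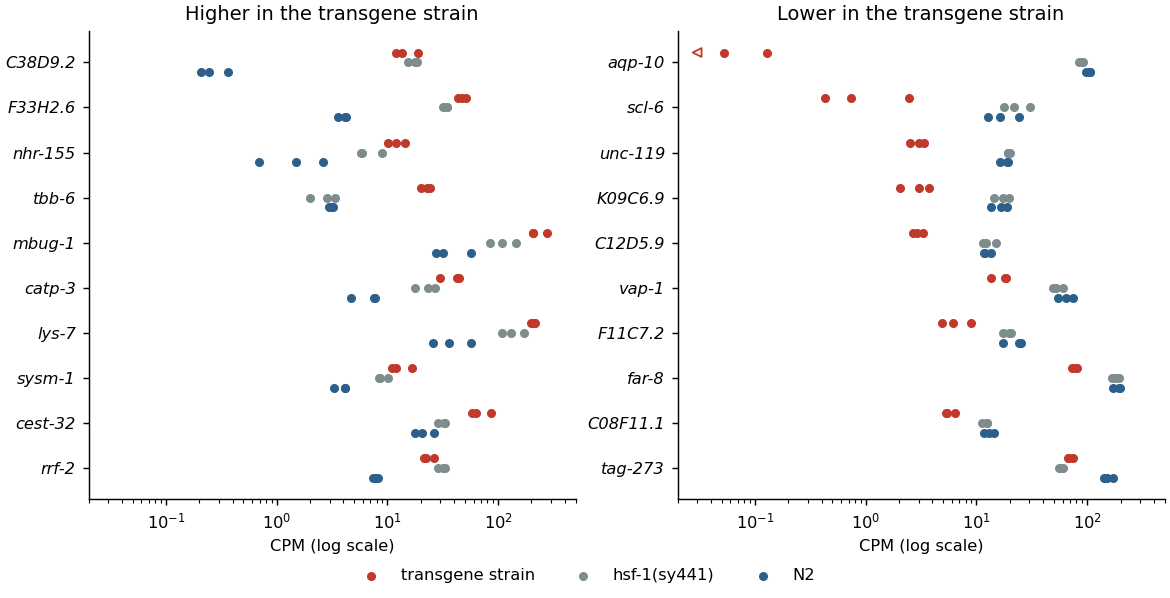
Level in CPM (log axis) in each library at 20 °C of the transgene strain, hsf-1(sy441) and N2 for the genes with the largest rises and falls at or above 10 CPM. Points are libraries and an open triangle marks a library with 0 fragments; C38D9.2 was high in both strains with hsf-1(sy441), and tbb-6 in the transgene strain alone.

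After aqp-10, the largest fall was at scl-6 (C39E9.4, chromosome IV, 13068744 to 13070266), which encodes a secreted protein of the SCP family. It had 0.738, 0.429 and 2.47 CPM in the transgene strain, 17.9, 30.2 and 21.8 CPM in hsf-1(sy441), and 16.2, 12.7 and 24.2 CPM in N2. The transgene strain alone was low (log2 −3.86 ± 0.69 SE against N2, adjusted p = 0.0099). The adjusted p was 0.069 without transgene replicate 1, 0.058 without transgene replicate 2 and 0.13 with only the 6 libraries compared. A second gene of that family, vap-1 (F11C7.3, chromosome X, 17393716 to 17396394), is known from the amphid sheath glia, which wrap sensory neurons of the head.

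The level of vap-1 was 18.2, 13.6 and 18.4 CPM in the transgene strain, 60.8, 49.1 and 52.5 CPM in hsf-1(sy441), and 74.6, 54.7 and 64.3 CPM in N2. It was 3.86-fold lower than in N2 (adjusted p = 0.00016). The adjacent F11C7.2 (17396744 to 17397706) also fell, with 8.91, 4.93 and 6.13 CPM in the transgene strain and 24.3, 17.2 and 25.4 CPM in N2 (adjusted p = 0.0057). F11C7.2 was not called without both number-3 libraries or with only the 6 libraries compared (adjusted p up to 0.11). In whole animals fewer cells of a type and less RNA per cell cannot be told apart.

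The gene far-8 (K02F3.3), which encodes a fatty acid and retinol binding protein, had 77, 72.4 and 80.7 CPM in the transgene strain, 192, 168 and 183 CPM in hsf-1(sy441), and 194, 171 and 197 CPM in N2. The fall was 2.44-fold (adjusted p = 0.0012), and the mutant without the transgene lay at the N2 level. The same held for K09C6.9, with 3.74, 2.06 and 3.02 CPM in the transgene strain and 16.6, 13.5 and 19 CPM in N2 (adjusted p = 2.5e-05). C12D5.9 had 3.32, 2.7 and 2.93 CPM in the transgene strain and 12, 11.7 and 13.5 CPM in N2 (adjusted p = 1.7e-06). Their means in hsf-1(sy441) were 17.2 and 12.8 CPM, and both differed from the transgene strain (adjusted p = 1.6e-05 and 9.6e-07).

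C08F11.1 fell 2.27-fold (adjusted p = 0.0013). By contrast tag-273 (Y57G11A.1) had 68.6, 75.1 and 66.8 CPM in the transgene strain, 55.3, 60.6 and 58 CPM in hsf-1(sy441), and 150, 171 and 142 CPM in N2. It was low in both strains with hsf-1(sy441), 2.2-fold below N2 in the transgene strain (adjusted p = 0.00055).

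Of the falls at lower levels, ZK105.11 had 0.158, 0.386 and 0.275 CPM in the transgene strain and 1.34, 2.22 and 1.44 CPM in N2 (adjusted p = 0.0004). ZK105.6 had 2.21, 2.36 and 2.65 CPM in the transgene strain and 7.37, 7.18 and 7.27 CPM in N2 (adjusted p = 0.00015). Y71F9AL.8 averaged 3.28-fold below N2 (adjusted p = 0.00042). The C-type lectin genes clec-86 and clec-198 were 2.78-fold and 2.39-fold below N2 (adjusted p = 0.02 and 0.0022). The call of clec-86 was lost in 5 of the 6 fits without 1 library, all but that without N2 replicate 3, with adjusted p up to 0.11. With only the 6 libraries compared ZK105.11 was not called (adjusted p = 0.06), nor was clec-198, which was also lost without both number-3 libraries (adjusted p up to 0.1).

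Heat shock protein genes were compared because the transgene strain carries a second form of their regulator. Of 9 inducible genes 4 could be tested, 4 others had failed estimates and hsp-16.49 had no fragments in these 6 libraries. None of the 4 was called by edgeR, with or without the replicate block, or by DESeq2, and 3 of them had an unadjusted p under 0.05. The small heat shock protein gene hsp-16.2 had 0.527, 0.643 and 21 CPM in the transgene strain and 0.335, 0.255 and 1.48 CPM in N2. The gene hsp-16.41, in the same locus of 4 genes, had 0.264, 0.343 and 49.5 CPM in the transgene strain and 0.251, 0.328 and 1.09 CPM in N2.

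Replicate 3 of each strain was thus the highest library for both genes, and replicate 3 of the transgene strain was far above all others. The log2 fold changes were 3.48 for hsp-16.2 (adjusted p = 0.21) and 4.96 for hsp-16.41 (adjusted p = 0.15). Without transgene replicate 3 they were −0.16 (adjusted p = 0.99) and −0.79 (adjusted p = 0.89), so the direction rests on that 1 library. Reads shared with near-identical hsp-16 copies could not be resolved, and the levels of these genes are uncertain for that reason too. The Hsp70 gene hsp-70 had 0.685, 0.686 and 1.28 CPM in the transgene strain and 0.335, 0.364 and 0.594 CPM in N2 (log2 1.06, adjusted p = 0.14). The fourth gene, hsp-16.48, had 1 fragment in 1 N2 library and 0 elsewhere.

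Constitutive chaperones were at like levels in both strains. Of 17 cytosolic members 0 were called by edgeR with or without the block, 0 by DESeq2 and 0 had an unadjusted p under 0.05, and their log2 fold changes ran from −0.2 to 0.17 with a median of 0.03, where the median of all genes was 0. The Hsc70 gene hsp-1 had 2821, 2913 and 2821 CPM in the transgene strain and 2728, 2586 and 2970 CPM in N2 (adjusted p = 0.88). The level of hsp-90 was 2641, 2686 and 2609 CPM in the transgene strain and 2478, 2333 and 2645 CPM in N2 (adjusted p = 0.65). It averaged 1682 CPM in hsf-1(sy441), from which the transgene strain differed by 0.65 on the log2 scale (adjusted p = 2.5e-05). The level of hsp-110 was 386, 398 and 384 CPM in the transgene strain and 390, 360 and 393 CPM in N2.

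Of 13 CCT chaperonin and prefoldin genes none was called, with a median of 0.12, and the block called cct-3 (adjusted p = 0.047). Of 9 other small heat shock protein genes none was called, and the block called hsp-43 (adjusted p = 0.027). None of 18 endoplasmic reticulum folding genes and none of 13 mitochondrial chaperones and proteases was called, with medians of −0.18 and −0.12. The block called trap-1 lower among the mitochondrial genes (adjusted p = 0.028). None of 72 ribosomal protein genes (median −0.01) and none of 30 proteasome genes (median −0.18) was called with or without the block.

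Of the 4 tested genes on the list of HSF-1 and its regulators, hsf-1 alone was called. In all, 17 lists of 349 tested genes held no call. Of these genes 33 had an unadjusted p under 0.05, the block called 18 and DESeq2 called 9. Over all 14219 genes tested 1515 had an unadjusted p under 0.05, the block called 4.52% and DESeq2 called 3.16%.

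Innate immune effectors were the list of general knowledge with the most called rises. Of 31 tested members 3 were called higher (lys-7, sysm-1 and irg-2) and 0 lower, with a median log2 fold change of 0.43, and the block called 8 higher. Of all genes tested 0.949% were called higher, or 2.85% with the block. The list's summed level was 2916, 2828 and 2810 CPM in the transgene strain and 2374, 2221 and 2420 CPM in N2, with no overlap. The gene irg-2 had 2.37, 2.36 and 3.34 CPM in the transgene strain and 0.0837, 0.182 and 0.841 CPM in N2 (adjusted p = 0.045). That call was lost in 5 of the 6 fits without 1 library, all but that without N2 replicate 3, with adjusted p up to 0.24.

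The families that follow were listed after values had been seen. Of 12 lysozyme genes 2 were called higher and 0 lower (median 0.24), and the block called 4 higher, beside the same 0.949% and 2.85% of all genes tested. Beside lys-7 the second was lys-10, with 4.53, 7.59 and 7 CPM in the transgene strain and 0.544, 0.437 and 1.14 CPM in N2 (adjusted p = 0.017). Its adjusted p was 0.12 without N2 replicate 1, 0.12 without N2 replicate 2, 0.059 without transgene replicate 2 and 0.052 without transgene replicate 3. Of 21 arrestin domain genes 3 were called higher and 0 lower (median 0.38), beside 0.949% of all genes tested called higher.

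Those were arrd-7, with 22, 19.1 and 26.8 CPM in the transgene strain and 9.38, 11 and 11.2 CPM in N2 (adjusted p = 0.0017), arrd-13 (log2 0.88, adjusted p = 0.0027) and arrd-19 (log2 0.85, adjusted p = 0.0004). Of 115 C-type lectin genes 2 were called higher and 4 lower (median 0.02), and the block called 5 and 9. Over all genes tested 0.949% were called higher and 0.38% lower, or 2.85% and 1.67% with the block.

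The spig family was split. Of 14 tested members 3 were called higher and 4 lower, where 0.949% and 0.38% of all genes tested were. The block called 4 higher, adding spig-17 (adjusted p = 0.023), and 4 lower, where it called 2.85% and 1.67% of all genes tested. Beside spig-5, spig-4 had 1.48, 1.93 and 1.6 CPM in the transgene strain and 0.126, 0.146 and 0 CPM in N2 (adjusted p = 0.00046). On the lower side spig-11 had 211, 227 and 195 CPM in the transgene strain, a mean of 302 CPM in hsf-1(sy441), and 359, 321 and 342 CPM in N2 (adjusted p = 0.0004). The third rise was spig-6 (log2 1.51, adjusted p = 0.023), which was lost in 5 of the 6 fits without 1 library, all but that without transgene replicate 1, with adjusted p up to 0.13.

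Among 7 coelomocyte and glia markers, 2 were called lower, spig-11 and fig-1, and 0 higher. Over all genes tested 0.38% were called lower. The sheath glia gene fig-1 had 37.2, 41.7 and 31 CPM in the transgene strain, a mean of 58.7 CPM in hsf-1(sy441), and 64.2, 54.5 and 55.3 CPM in N2 (log2 −0.66, adjusted p = 0.016). Its adjusted p was 0.075 without N2 replicate 1, 0.059 without transgene replicate 1 and 0.071 without transgene replicate 3. The summed level of the list was 463, 510 and 387 CPM in the transgene strain and 684, 588 and 644 CPM in N2. The called genes spig-11 and fig-1 are themselves part of this sum, with means of 211 and 36.6 CPM in the transgene strain and 341 and 58 CPM in N2. The median log2 fold change of the 7 markers was −0.13.

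Peroxisomal β-oxidation genes, whose enzymes shorten fatty acids and the side chains of ascaroside pheromones, were also listed after values were seen. Of 16 members 3 were called lower and 0 higher (median −0.3), where 0.38% of all genes tested were called lower. The block called 4 lower, adding acox-1.2 (adjusted p = 0.0041), and DESeq2 called 5 lower. Over all genes tested the block called 1.67% lower and DESeq2 1.15%. The summed level was 1585, 1644 and 1557 CPM in the transgene strain and 1992, 2031 and 1985 CPM in N2. The hydratase gene maoc-1 had 105, 114 and 124 CPM in the transgene strain, a mean of 101 CPM in hsf-1(sy441), and 170, 175 and 181 CPM in N2 (log2 −0.61, adjusted p = 0.0014). It was low in both strains with the allele. The thiolase genes kat-1 and daf-22 had log2 fold changes of −0.42 (adjusted p = 0.015) and −0.43 (adjusted p = 0.041).

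The kat-1 call was lost without N2 replicate 1 (adjusted p = 0.06), N2 replicate 3 (0.067) or transgene replicate 1 (0.076). The daf-22 call was lost in 5 of the 6 fits without 1 library, all but that without N2 replicate 3, with adjusted p up to 0.23.

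Among germline markers 2 of 32 were called lower and 0 higher, with a median of −0.27, and the block called 5 lower. Over all genes tested 0.38% were called lower, or 1.67% with the block. The P granule gene pgl-1 had 68.8, 45.1 and 50.2 CPM in the transgene strain, a mean of 60.9 CPM in hsf-1(sy441), and 87.8, 84.5 and 76.7 CPM in N2 (adjusted p = 0.039). Its partner pgl-2 had a log2 fold change of −0.60 (adjusted p = 0.034). The pgl-1 call held, of the 6 fits without 1 library, in that without transgene replicate 1 alone, with adjusted p up to 0.19 in the others. The pgl-2 call held in those without transgene replicate 1 or 3, with adjusted p up to 0.13 in the others. The gene asb-1, the germline form of an ATP synthase subunit and the 1 called member of 37 respiratory chain genes, had 59.5, 54.2 and 51 CPM in the transgene strain and 84.4, 83.2 and 73.3 CPM in N2 (adjusted p = 0.0033). The summed level of the germline markers was 866, 680 and 723 CPM in the transgene strain and 973, 962 and 825 CPM in N2, and its part in these falls was not tested.

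**Figure D4:**
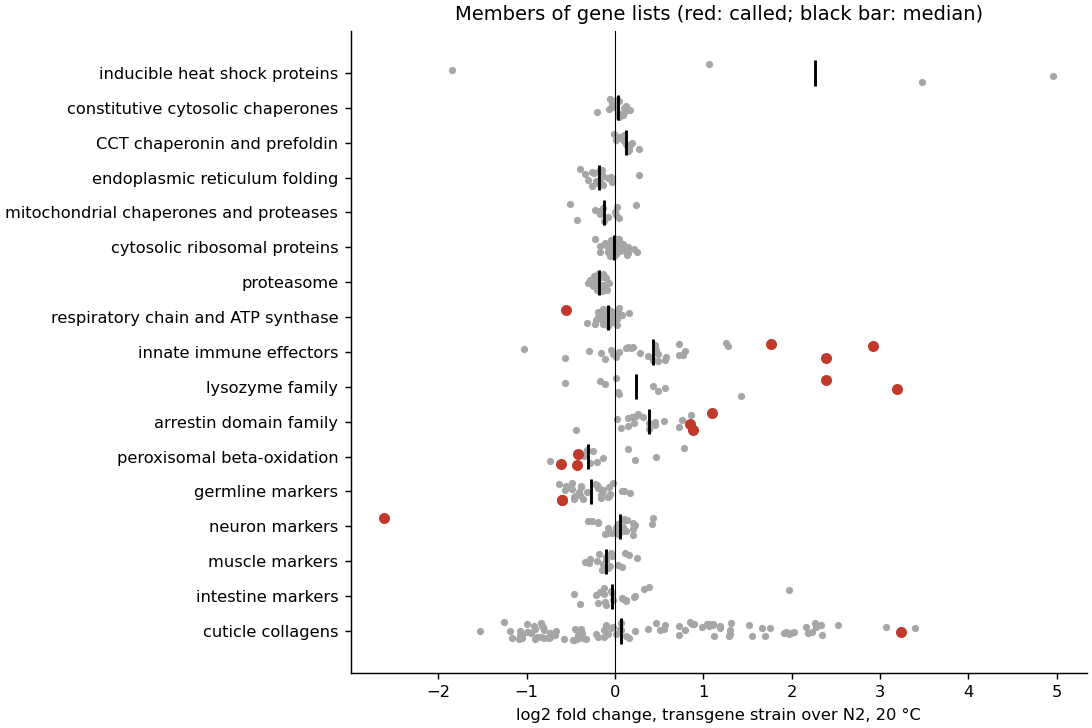
Log2 fold change of the transgene strain over N2 at 20 °C for each tested member of the gene lists, 1 line of points per list. Red points are called and the black bar is the list's median; immune effectors (median 0.43) and arrestin domain genes (0.38) lie to the right, and chaperone and ribosomal protein genes lie close to 0.

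Cell-type and stage lists held few calls, where 1.33% of all genes tested were called, or 4.52% with the block. Among 29 neuron markers only unc-119 was called, and among 19 muscle, 21 intestine, 17 hypodermis and 18 pharynx markers none was by edgeR. The medians of these last 4 lists ran from −0.11 to −0.03, and the block called 1 further neuron gene and 1 intestine, 2 hypodermis and 3 pharynx genes. Of 99 cuticle collagen genes 1 was called, col-101 (log2 3.24, adjusted p = 0.037), and the block called 6 higher and 1 lower. Its call was lost in 5 of the 6 fits without 1 library, all but that without N2 replicate 3, with adjusted p up to 0.21. The summed collagen level was 19478, 18753 and 9806 CPM in the transgene strain and 26547, 32560 and 10593 CPM in N2. Replicate 3 was the lowest library of both strains, and each library of the transgene strain was below the same-numbered library of N2.

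Of 27 moulting genes (median −0.39) and 13 heterochronic genes, which time larval stages (median −0.08), none was called. The block called 1 moulting gene higher. Of 28 DNA replication and cell cycle genes none was called (median −0.19), and the block called 1 higher and 1 lower. Of 32 fatty acid genes none was called, and the block called 3 higher and 4 lower. Among 20 DAF-16 targets and metallothioneins 1 was called, dod-24, with 38.8, 47.3 and 36.6 CPM in the transgene strain and 17.2, 25.9 and 18.7 CPM in N2 (adjusted p = 0.0035). Among 24 oxidative response genes, which include the glutathione S-transferases, 1 was called, the thioredoxin reductase gene trxr-2 (log2 −0.57, adjusted p = 0.034). Among 32 cytochrome P450 and glucuronosyltransferase genes 1 was called, cyp-29A2 (log2 −0.46, adjusted p = 0.018), and the block called 1 higher and 2 lower. The call of trxr-2 was lost in all 6 fits without 1 library, with adjusted p up to 0.22. That of cyp-29A2 held without N2 replicate 3 or transgene replicate 2 and was lost in the other 4 fits, with adjusted p up to 0.11. None of 3 yolk protein genes was called. The shares over all genes tested were 1.33%, or 4.52% with the block.

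The comparison was repeated at 34 °C, with other libraries of the same strains. Same-numbered libraries of a strain resembled each other across the temperatures, with correlations of their deviations of 0.33, 0.56 and 0.71 in the transgene strain and 0.37, 0.77 and 0.79 in N2. Numbers 1 and 2 also correlated across the temperatures, at 0.32 and 0.19 in the transgene strain and 0.22 and 0.17 in N2. The number-3 libraries of the 2 strains correlated at 0.63 at 20 °C and 0.73 at 34 °C. Shared cultures are not stated in the labels, and the repeat is not taken as wholly separate from the comparison at 20 °C. At 34 °C 386 genes were called (2.71%), 231 higher (1.62%) and 155 lower (1.09%), and 1202 with the replicate block (8.45%). That count was 874 without N2 replicate 3 at 34 °C, 164 without N2 replicate 1, and 228, 221 and 251 without transgene replicates 1, 2 and 3 at 34 °C. Of the 135 genes higher at 20 °C, 132 had the same sign at 34 °C and 96 (71.1%) were called higher there. Of the 54 lower genes, 53 had the same sign and 36 (66.7%) were called lower. None was called in the opposite direction, and the genes called at both temperatures were 69.8% of the calls at 20 °C and 34.2% of those at 34 °C.

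The genes that mark the strain held at both temperatures. At 34 °C hsf-1 had 97.6, 101 and 112 CPM in the transgene strain and 31.5, 30.7 and 38.5 CPM in N2 (log2 1.62, adjusted p = 1.1e-07). The level of unc-119 was 2.17, 2.18 and 2.46 CPM in the transgene strain and 13.3, 11.9 and 12 CPM in N2 (adjusted p = 8.3e-08). The aqp-10 gene had no fragment in any transgene library at 34 °C and 159, 114 and 126 CPM in N2, which is lower by a factor of at least 2502 when the floor of 3 fragments is taken for the group. Its neighbour shk-1 had 66.6, 65.9 and 83.2 CPM in the transgene strain and 17.4, 17.4 and 18.9 CPM in N2 (log2 2.00, adjusted p = 1.5e-07).

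The stretch around hsf-1 had a median log2 fold change of 0.97 at 34 °C, which is 1.95-fold, with 25 of the 33 genes called higher. One member, rbm-3.1, was called lower there (log2 −0.86, adjusted p = 0.022). The β-tubulin gene tbb-6 had 18.3, 17.7 and 25.4 CPM in the transgene strain and 2.93, 3.84 and 3.68 CPM in N2 at 34 °C (adjusted p = 1.5e-05). The lysozyme gene lys-7 and the sheath glia gene vap-1 had log2 fold changes of 2.30 (adjusted p = 0.0021) and −1.54 (adjusted p = 0.0012) at 34 °C. Of the other genes with the largest changes, ZK105.11, clec-198 and Y45F10D.6 were not called at 34 °C, with log2 fold changes of −0.64 (adjusted p = 0.52), −0.25 (adjusted p = 0.64) and 1.85 (adjusted p = 0.25).

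The difference between the temperatures in the strain effect was tested itself, as an interaction term. No gene was called by edgeR (0.0%), and the smallest adjusted p was 0.35. Of the 14219 genes tested 610 had an unadjusted p under 0.05, which is no more than that threshold alone would give. The replicate block called 1 gene (0.00703%) and DESeq2 called 13 (0.0914%). The gene with that smallest adjusted p was hsp-110, named after its values were seen. At 34 °C it had 3487, 3626 and 4130 CPM in the transgene strain and 5311, 6207 and 5684 CPM in N2 (log2 −0.61, adjusted p = 0.00029), and the transgene libraries lay below all N2 libraries. The log2 difference between the temperatures was −0.64.

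**Figure D5:**
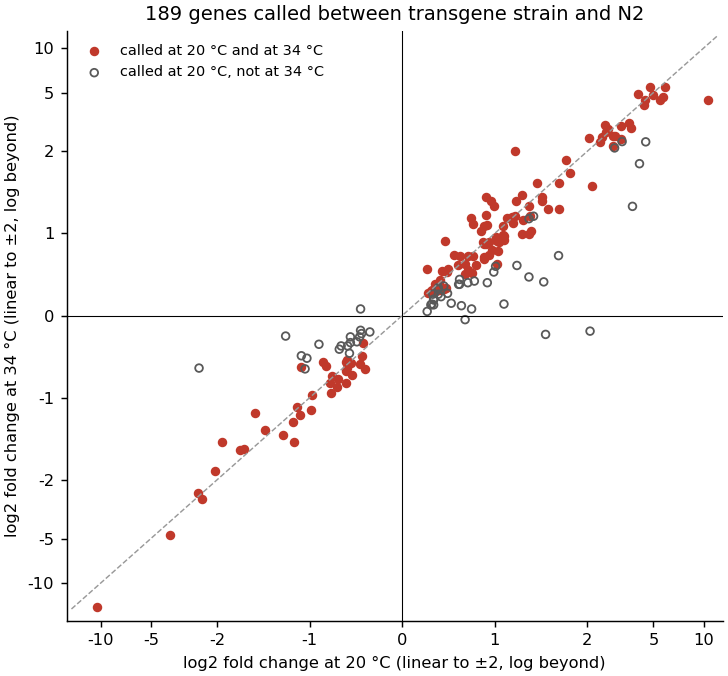
Log2 fold change of the transgene strain over N2 at 34 °C against that at 20 °C for the 189 genes called at 20 °C, on axes that are linear to 2 and logarithmic beyond. Each point is a gene and the dashed line marks equal values; 132 of 135 rises and 53 of 54 falls have the same sign at 34 °C, and the values of aqp-10 and anp-1 at the ends are fitted ones that depend on the prior count.

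The authors' deposited table of the same 2 groups, made with Cuffdiff, tested 13795 genes. In the authors' deposited comparison table a total of 962 genes had a q value under 0.05, 465 higher and 497 lower in the transgene strain. Genes called there and by edgeR in 1 direction were 63% of the edgeR calls and 12.4% of the calls of the authors' deposited table. The authors' deposited table gives log2 ratios of 1.45 for hsf-1, −2.53 for unc-119 and 1.27 for shk-1, each with a q value of 0.000776. For aqp-10 the authors' deposited table gives −10.6 with a q value of 0.453, so this gene passed the edgeR threshold and not the table's.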

How the data were processed

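The submitters' processing notes name TopHat2, Cuffdiff and the build ce10; versions, options and the annotation are not given in the sources used here. For each gene in each library, the deposited read group table gives unscaled expected counts of fragments, per the file headers. The same file gives FPKM values that the authors scaled between libraries. The authors' deposited comparison gives log2 ratios of FPKM with the authors' p-values and q-values from Cuffdiff. The table held 20389 genes, of which 97.5% had a name matched by identifier. Cuffdiff gave 114 genes a failed estimate in at least 1 library; they held 6.11% to 7.75% of the fragments of a library and were left out. Replicate numbers start at 0 in the table and at 1 in the labels and were matched in their order.

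The expected counts were rounded, which changed no library total by more than 4e-05%, and fitted with edgeR 4.0.16 in R 4.3.3 over all 18 libraries (16.1 to 34.7 M fragments), with 1 mean per group, filterByExpr, TMM factors (0.85 to 1.239), robust quasi-likelihood dispersion and 12 residual degrees of freedom. The biological coefficient of variation was 25.3%. Alternatives used DESeq2 1.42.0, limma 3.58.1 on log2(FPKM + 0.1) or log2(FPKM + 1), other scaling factors and filters, only the 6 libraries, a replicate block, and each library left out. Leaving out both number-3 libraries was chosen after seeing the data. Intervals and floors cover counting error only, since the labels mention no molecular identifiers.

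Number 3 stood apart in both strains, and numbers 1 and 2 were not told apart. Deviations from the group means of same-numbered transgene and N2 libraries correlated at 0.32, 0.31 and 0.63 at 20 °C. Different numbers correlated at 0.34 and 0.36 between 1 and 2, and between −0.49 and −0.43 with number 3. Genes that overlap or share a locus, which holds for 38 of the called genes, have separate counts as the authors' software assigned them. How well it divided the fragments between such genes could not be checked.

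Named genes are hsf-1, unc-119, the inducible heat shock proteins, the 10 largest rises and 10 largest falls among called genes with at least 10 CPM in the higher group and no overlap, the next 5 and 5 with at least 1 CPM, and up to 4 members per gene list. The gene unc-119 is itself 1 of the 10 falls. Other genes were named after their values were seen. The comparison and the 32 gene lists were chosen with earlier results of these data known, and 5 lists (peroxisomal β-oxidation, spig, C-type lectin, arrestin domain and lysozyme) were added after seeing values.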

Additional observations from a re-analysis of the deposited data

How the results depend on the processing

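Of the genes called between the transgene strain and N2 at 20 °C, 92 of 189 were called in each of the 6 fits without 1 library, 59 in all 19 alternatives, and all 189 kept their direction wherever tested. The counts of all, higher and lower calls were 450, 287 and 163 with DESeq2, 642, 405 and 237 with the replicate block, and 481, 281 and 200 with the block and the 6 libraries only. They were 78, 57 and 21 with the 6 libraries only and 90, 65 and 25 without both number-3 libraries. With limma they were 122 and 86 (all and higher) for log2(FPKM + 0.1) and 120 and 83 for log2(FPKM + 1). Without 1 library they ran from 101 to 156, 69 to 113 and 32 to 43. At 34 °C the count of 386 was 915 with DESeq2, 225 and 242 with limma, 1202 with the block and 164 to 874 without 1 library. Between the transgene strain and hsf-1(sy441) the count of 659 was 1523 with DESeq2, 422 and 424 with limma, 2715 with the block and 328 to 519 without 1 library. For the difference between temperatures the count of 0 was 13 with DESeq2, 1 with the block and 0 to 1 without 1 library, the 1 being without N2 replicate 2 at 34 °C. In the stretch around hsf-1 the 23 rises were 15 without both number-3 libraries and 16 to 21 without 1 library. The cause was not tested for any of these shifts. The fits without a library also had fewer libraries, and the part of that in the shifts was not tested. In the transgene strain aqp-10 had at most 3 fragments per library and in N2 anp-1 had 0, and their folds are limited by that depth.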
